A study of Mus musculus with 6 samples.

Results

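The comparison described here set experiments 2 and 3 against experiment 1 of a series of 3 independent experiments. The cells were labelled as mouse mesenchymal stem cells, which are stromal precursors of fat, bone and cartilage. It used all 6 Affymetrix arrays of the series, 4 from the later experiments and 2 from the first, and every probe set except the 64 Affymetrix control probe sets, which left 45037. Each experiment held 1 culture irradiated for 2 h with broadband terahertz light (35 fs pulses near 10 THz, 1 kHz, average 1 mW/cm2) and 1 unexposed control culture beside it. Cultures of both arms were kept at 26 to 27 °C, and both had been given dexamethasone (1 µM), IBMX (100 µM), insulin (5 µg/ml) and rosiglitazone (1 µM) once more 48 h earlier. The cells came from a commercial source, and all 6 cultures share the adipogenic mix, so no array shows the cells without it. The question was which transcripts separated whole experiments, in the irradiated and in the control culture alike, beyond the early response and heat shock genes for which experiment 1 was already known to be low.

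Rosiglitazone activates PPARγ, the master regulator of fat cells, dexamethasone activates the glucocorticoid receptor, and IBMX keeps cAMP from being broken down. Stromal cells answer serum, handling, temperature shifts and other stimuli with early response transcription factors, followed by a wave of secreted signals, receptor ligands, feedback inhibitors and stress regulators. Many of these transcripts are short-lived.

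A level below is the deposited value of a probe set on the log2 scale, and a difference is the mean of the 4 later arrays minus the mean of the 2 first arrays, adjusted for irradiation, with the SE of limma's fit. Arrays of 1 experiment come from cultures run together, and a single experiment stands on one side, so the p-values measure the spread between arrays and not between repeated experiments. The labels give no date, passage number or batch, so the experiment and anything that went with it cannot be told apart. Fewer cells of a type and less RNA per cell cannot be told apart in these bulk samples either.

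The labelled cell type was checked against 8 sets of markers. All 4 measured fat cell markers (Fabp4, Adipoq, Lpl, Cidec) lay at or above the median probe set, which was at 4.84, as did 7 of 7 macrophage and leukocyte markers 5 of 6 measured mesenchymal stromal markers and 4 of 5 measured bone and cartilage markers. Thy1, a defining stromal marker, lay at 3.84. The endothelial, skeletal muscle, epithelial and neuronal sets each had 1 member at or above the median. The log2 of the summed fat cell markers was 15.66 to 15.81 in experiment 1 and 15.61 to 15.78 in the later experiments, that of the macrophage and leukocyte markers 15.25 to 15.28 and 15.13 to 15.26, and that of the stromal markers 12.29 to 12.31 and 12.20 to 12.24. The fat cell and the leukocyte sums thus lay above the stromal sum on every array. The cultures therefore do not read as stromal cells alone, and which cell type carried a difference given below was not tested. The gap between the 3' and 5' control probe sets of Gapdh, which grows as RNA is broken, came to 0.19 and 0.23 in the first experiment but to -0.05 to -0.01 later. For Actb it was 0.75 and 0.76 against 0.61 to 0.72. For Tfrc it ran the other way, with 1.83 and 1.64 against 1.84 to 2. The control genes thus differed in direction, and the part of these gaps in the results was not tested.

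Experiments 2 and 3 stood apart from experiment 1 over a small, one-sided set of transcripts. By limma (Benjamini-Hochberg adjusted p under 0.05), 188 of 45037 probe sets were higher (0.417%) and 41 were lower (0.091%), which together is 0.508%. With the experiment as a replicate block of 3 levels, which takes the step between experiments 2 and 3 out of the residual, 640 were higher and 306 lower, including all 188 and all 41. The p-values of that fit rest on the spread between the arms of an experiment and not on that between experiments. Of the higher calls 137 differed by at least 2-fold and 46 by at least 4-fold, and of the lower calls 7 differed by at least 2-fold. The absolute difference ran from 0.56 to 5.02 with a median of 1.36 on the higher side, and from 0.61 to 1.77 with a median of 0.83 on the lower side. All calls were lost without experiment 2, without experiment 3 and without either array of experiment 1: limma then called 0 higher and 0 lower, with 2969 and 3612, 2400 and 2287, 1619 and 1549 (without irradiated culture 1), and 1671 and 1639 (without control culture 1) at an unadjusted p under 0.05. Without irradiated culture 2 the counts were 111 and 7, without irradiated culture 3 121 and 4, without control culture 2 262 and 90, and without control culture 3 170 and 22.

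In the 188 higher probe sets all 4 later arrays lay above both arrays of experiment 1, and in 40 of the 41 lower ones all 4 lay below. Over all probe sets these orders were seen in 4950 (11%) and 6616 (14.7%). The calls were made on this same contrast, so their order was largely fixed by the choice and does not support them. An unadjusted p under 0.05 was given to 6173 probe sets, of which 2748 were higher and 3425 lower. The excess of higher calls therefore did not extend to the weaker differences, whose majority was on the lower side. The higher calls were concentrated among bright probe sets, with 160 in the brightest, 27 in the middle and 1 in the dimmest of 3 equal bins of mean level. The lower calls numbered 9, 28 and 4 in the same order.

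**Figure D1:**
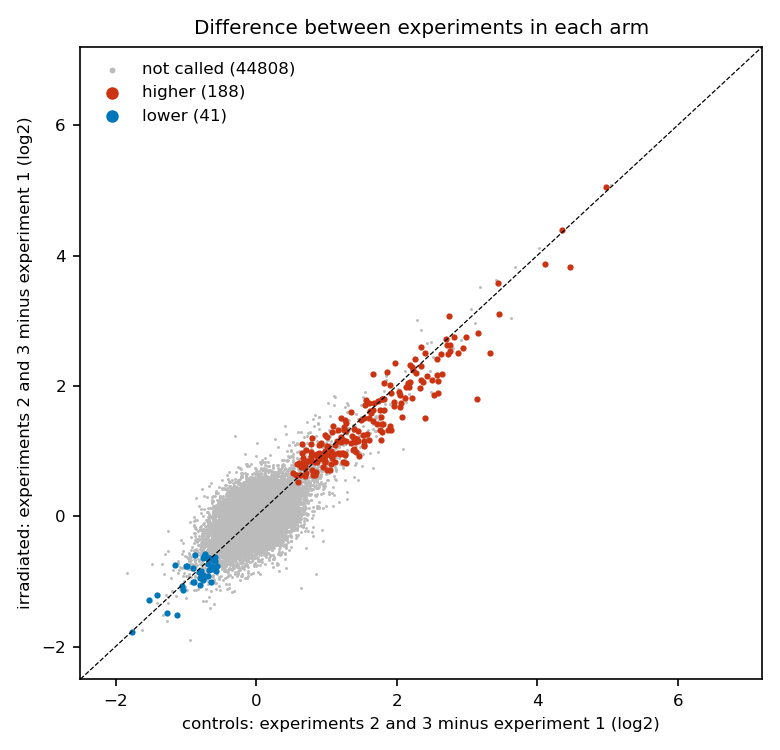
Difference of experiments 2 and 3 from experiment 1 in the control cultures (horizontal axis, log2) and in the irradiated cultures (vertical axis, log2), 1 point per probe set, with the 188 higher calls in red, the 41 lower calls in blue and the other 44808 probe sets in grey. The dashed line marks equal differences. All red points lie above 0 and all blue points below 0 in both arms.

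The step was also read in each arm. The calls were made on both arms together, so that the choice of probe sets largely fixes an equal sign in the arms, and the following values describe the calls without supporting them. Every one of the 188 higher and 41 lower calls had the same sign in control and in irradiated cultures. The median step of the higher calls was 1.45 in controls and 1.31 in irradiated cultures, and that of the lower calls was -0.76 and -0.83. An interaction term asking whether the step differed between the arms called 0 probe sets (0%) by limma, with 1176 at an unadjusted p under 0.05, and it also called 0 with the experiment as a replicate block (1286 unadjusted). Over all probe sets the steps in the arms had the same sign in 61.5% and correlated with Pearson's r = 0.629 and Spearman's rho = 0.385 across probe sets, which are not independent replicates.

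Of the sum of squares over all probe sets, 45.2% lay between the first and the later experiments, 20.3% between experiments 3 and 2, 11.8% between the arms and 22.7% in the residual with 2 degrees of freedom. Leaving out the early response and heat shock genes changed the first share to 43%, and leaving out all called probe sets to 39.5%. Most of the variation between experiments was therefore spread over probe sets that did not pass the test. The root mean square difference between arrays was 0.186, 0.181 and 0.237 within experiments 1, 2 and 3. It was 0.241 to 0.263 between experiments 1 and 2, 0.212 to 0.269 between 2 and 3, and 0.311 to 0.368 between 1 and 3. Experiment 2 therefore lay between the others, and its arrays were as far from some arrays of experiment 3 as from those of experiment 1.

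**Figure D2:**
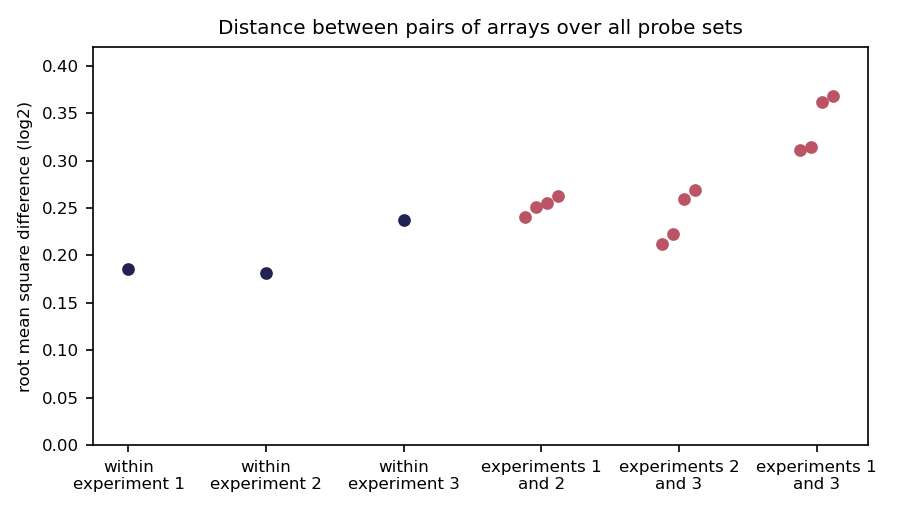
Root mean square log2 difference over all 45037 probe sets for each of the 15 pairs of arrays, within an experiment (dark points) and between experiments (red points). The pairs of experiments 1 and 3 lie highest, at 0.311 to 0.368, and the pairs within experiments 1 and 2 lowest, at 0.186 and 0.181.

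The called probe sets with a single gene symbol stand for 122 higher and 28 lower genes. The early response and heat shock lists held 19 of the higher and 0 of the lower genes, so 103 and 28 genes lay outside them. The early response list has only 30 members, so a gene outside it may still belong to the early response. The early response list had 18 of 30 members higher with a median of 2.02, among them Fos at 2.04 ± 0.19 (limma adjusted p = 0.0119). Read on its brightest probe set, no member of the heat shock and chaperone list passed, although 15 of 22 had all 4 later arrays above experiment 1. A dim probe set of Hspa4l, a heat shock protein of the HSP70 superfamily, was called higher (0.56 ± 0.08, limma adjusted p = 0.0446), while its brightest stood at 0.09. Hspa1a, the inducible chaperone, differed by 5.07 ± 1.18 (limma adjusted p = 0.153). Its means in experiments 2 and 3 lay 3.58 apart, and with the replicate block its adjusted p was 0.00028. For lists, 1 probe set stood for a gene, and then 94 of 18193 genes were higher (0.517%) and 12 lower (0.066%). All 4 later arrays lay above in 2034 of these genes (11.2%) and below in 3269 (18%), and the median difference over all of them was -0.018. Of these genes 8183 were positive and 10010 negative.

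The largest rise among the named genes outside those lists was in Ptgs2, cyclooxygenase-2, which makes the precursor of prostaglandins. Its level was 7.58 in control and 7.37 in irradiated culture of experiment 1, 11.56 and 11.71 in experiment 2, and 12.32 and 11.80 in experiment 3. All later arrays lay above 11 and both first arrays below 8, in either arm. The difference was 4.37 ± 0.19 (limma adjusted p = 0.00334), which is 20.7-fold, and a dimmer probe set of Ptgs2 gave 4.15 ± 0.31 (adjusted p = 0.00764). Ptger4, a prostaglandin E2 receptor that raises cAMP, stood at 9.38 and 9.44, then at 10.35 and 10.27, then at 10.65 and 10.27, a difference of 0.97 ± 0.12 (adjusted p = 0.0249). These were 2 of 16 measured genes of prostaglandin synthesis and reception, against 0.517% of all genes, and the list's median was 0.12. The step was thus in the inducible synthase and 1 receptor, while the terminal synthases Ptges (0.33) and Ptges2 (-0.10) and the receptors Ptger1 (0.34), Ptger2 (0.18) and Ptger3 (0.02) did not pass.

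Secreted cytokines and chemokines were among the higher calls. Cxcl1, a chemokine that attracts neutrophils, read 5.79 (control) and 5.78 (irradiated) in experiment 1, 9.2 and 9.33 in experiment 2, and 10.59 and 9.97 in experiment 3, a difference of 3.99 ± 0.37 (limma adjusted p = 0.0119). Its brighter probe set gave 3.27 ± 0.34 (adjusted p = 0.0151). Il6, interleukin-6, read 5.61 and 5.92, then 7.86 and 7.92, then 8.41 and 7.63 (2.19 ± 0.21, adjusted p = 0.0125). Lif, a cytokine of the same receptor family, read 5.80 and 6.06, then 8.22 and 8.18, then 8.55 and 7.71 (2.23 ± 0.20, adjusted p = 0.0119). In both cytokines irradiated culture 3 was the lowest of the 4 later arrays, and still above experiment 1. A dimmer Lif probe set, at 0.615, did not pass.

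All 4 later arrays lay above experiment 1 in 15 of 32 members of the list of chemokines, cytokines and NF-kB feedback genes, against 11.2% of all genes. In that list 4 members were higher and 0 lower, against 0.517% and 0.066% of all genes, with a list median of 0.18. Besides Cxcl1, Il6 and Lif, the fourth was Nfkbiz, a nuclear IkB protein, at 1.18. Cxcl2 at 3.04, Il11 at 2.04 and Ccl2 at 1.04 were larger or similar in size and did not pass. Nfkbia, the standard feedback inhibitor of NF-kB, was at 0.02, Tnfaip3 at -0.01, Icam1 at 0.05 and Vcam1 at -0.07. The called members were thus 3 secreted signals and Nfkbiz, and these 4 other NF-kB targets did not pass.

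The EGF receptor ligand Hbegf followed Cxcl1 in size. It read 6.12 and 6.21 in experiment 1, 8.73 and 9.14 in experiment 2, and 10.39 and 10.44 in experiment 3. Its levels went up in steps, with both arrays of experiment 3 above both of experiment 2. The difference was 3.51 ± 0.50 (limma adjusted p = 0.0448), and a brighter Hbegf probe set gave 3.12 ± 0.48 and narrowly missed the threshold (adjusted p = 0.0585). Inhibitors downstream of such receptors rose as well: Errfi1, which binds and blocks the EGF receptor, went from 11.34 and 11.63 to between 12.56 and 12.90 (1.21 ± 0.13, adjusted p = 0.0176). Spry2, an inhibitor of receptor tyrosine kinase signalling, rose by 1.29 ± 0.12 (adjusted p = 0.0119), and the MAP kinase phosphatases Dusp10 and Dusp14 by 1.64 ± 0.20 (adjusted p = 0.0242) and 1.39 ± 0.17 (adjusted p = 0.023). A dimmer Dusp10 probe set, at 0.46, did not pass.

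In that list of EGF ligands and MAP kinase feedback genes 4 of 23 members were higher and 0 lower, counted on the brightest probe sets, with a median of 0.32. Its members did not move as one. Dusp6, a phosphatase of ERK, was at -0.36, and Spred1 and Spred2, further inhibitors of the pathway, were both at -0.34, none past the test. All 4 later arrays lay above experiment 1 in 13 members and below it in 4, against 11.2% and 18% of all genes. The share of all genes called higher was 0.517%.

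Genes that answer cAMP were among the highest. Gem, a small GTPase that acts on calcium channels, read 5.39 and 5.89 in experiment 1, 8.24 and 8.59 in experiment 2, and 9.2 and 8.2 in experiment 3 (2.92 ± 0.30, limma adjusted p = 0.0144). Rgs2, which shortens signalling through G proteins, had its brighter probe set at 10.45 and 10.60 and then between 11.96 and 12.32, a difference of 1.60 ± 0.11 (adjusted p = 0.00687). Crem, a cAMP-responsive transcription factor, was higher by 0.99 and the kinase Sik1 by 1.24, and the early response gene Nr4a1 by 2.37 ± 0.16. These were 5 of 24 members of the cAMP list, with 0 lower and a median of 0.06. Of all 18193 genes 0.517% were higher and 0.066% lower. Most members did not share the step. The phosphodiesterases Pde3b (-0.19), Pde4b (0.29) and Pde4d (-0.09), the gluconeogenic enzyme gene Pck1 (-0.14) and the CREB coactivator Crtc2 (-0.10) did not pass.

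Stress kinases and genes of the p53 and DNA damage list rose together in part. Plk3, a polo-like kinase induced by stress, read 6.73 and 6.60, then 8.47 and 8.44, then 9.38 and 8.87 (2.12 ± 0.25, limma adjusted p = 0.0216). Its relative Plk2 read 10.10 and 10.09, then 11.50 and 11.44, then 11.95 and 11.98 (1.62 ± 0.18, adjusted p = 0.0191). In Plk2 the arms of an experiment differed by at most 0.06, while the mean of each later experiment lay over 1 above that of experiment 1. In the list 6 of 24 members were higher and 0 lower, with a median of 0.42: Plk2, Plk3, the antiproliferative early gene Btg2 (2.50), the p53 ubiquitin ligase Mdm2 (0.99), the cell death gene Pmaip1 (1.55) and the leucine sensor Sesn2 (0.80). Of the 24 members 16 were positive, 8 were negative, and all 4 later arrays lay above experiment 1 in 15. Over all 18193 genes 0.517% were called higher, 8183 were positive and 11.2% had all 4 later arrays above. Cdkn1a, the CDK inhibitor p21 and a standard p53 target, was at 0.44 on its brightest probe set (adjusted p = 0.0907) and was called higher on another (0.59 ± 0.08, adjusted p = 0.0462). The negative members, of which none passed, included the p53 targets Ccng1 (-0.01), Zmat3 (-0.18), Sesn1 (-0.26) and Fas (-0.08). Gadd45b, at 2.55 the largest difference of the list, missed the threshold (adjusted p = 0.0746).

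Enzymes of the oxidative stress response controlled by NRF2 were among the higher calls. Srxn1, sulfiredoxin, which repairs oxidized peroxiredoxins, read 8.64 and 8.60, then 10.41 and 10.73, then 10.96 and 10.20 (1.96 ± 0.20, limma adjusted p = 0.0139), and all 4 of its probe sets were called. Gclc, the rate-limiting subunit of glutathione synthesis, read 10.49 and 10.60, then 11.92 and 12.07, then 11.86 and 11.54 (1.30 ± 0.15, adjusted p = 0.0214). Its experiment 3 arrays lay below both arrays of experiment 2, unlike most of the called genes. Hmox1, heme oxygenase, went from 11.90 and 11.64 to between 12.75 and 13.08 (1.11 ± 0.12, adjusted p = 0.0155). With thioredoxin reductase Txnrd1 (0.85) these made 4 of 24 members higher and 0 lower, with a median of 0.18. Among all genes 0.517% were higher and 0.066% lower. The metallothioneins Mt1 (0.07) and Mt2 (0.09), catalase (Cat, -0.10) and the superoxide dismutases Sod1 (0.07) and Sod2 (-0.14) did not pass.

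Smaller numbers passed in other stress and hormone lists, beside 0.517% of all genes called higher. Ppp1r15a, also called GADD34, which restarts translation after stress, read 8.28 and 8.38, then 9.99 and 9.81, then 10.81 and 10.57 (1.97 ± 0.28, limma adjusted p = 0.0447). It and Sesn2 were 2 of 28 members of the unfolded protein and ATF4 list, whose median was 0.12, and the endoplasmic reticulum chaperones Hspa5 (0.64), Hsp90b1 (0.11) and Pdia4 (-0.17) did not pass. Vegfa, the endothelial growth factor, stood at 9.42 in both arrays of experiment 1 and between 10.54 and 10.74 later (1.20 ± 0.09, adjusted p = 0.00764), as the only one of 23 hypoxia and glycolysis genes past the test. The lactate dehydrogenase gene Ldha was at 0.04 and Pgk1 at 0.04. Among 19 glucocorticoid targets Sgk1, a kinase that regulates ion transport, passed at 0.89 ± 0.08 (adjusted p = 0.0119) along with Errfi1, and Fkbp5 (-0.15), Tsc22d3 (0.31) and Per1 (0.29) did not.

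Several genes of differentiation and matrix were also higher. Sox9, the transcription factor of cartilage, read 4.84 and 4.76, then 7.11 and 7.10, then 8.31 and 7.43 (2.69 ± 0.31, limma adjusted p = 0.0207), while none of the other 15 measured bone and cartilage genes passed. The brightest Sox9 probe set was called too, and a dim one, at 0.25, did not pass. Has1, a hyaluronan synthase, went from 5.87 and 5.75 to between 7.41 and 8.57 (2.08 ± 0.30, adjusted p = 0.0478), and Adamts1, a matrix metalloprotease, from 10.56 and 10.58 to between 11.56 and 12.12 (1.22 ± 0.17, adjusted p = 0.041). Gdnf, a growth factor for neurons, stood at 6.72 and 6.71, then at 8.48 and 8.99, then at 9.43 and 8.93 (2.24 ± 0.23, adjusted p = 0.0151). In the called probe sets of these genes all 4 later arrays lay above both first arrays, as in every higher call. The collagen list had 0 of 22 members past the test and a median of 0.01.

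The rest of the 20 top genes were diverse. Phlda1, a growth-factor induced regulator, read 8.78 and 8.65, then 11.05 and 10.98, then 12.14 and 11.83 (2.79 ± 0.33, limma adjusted p = 0.023). Tcim, a regulator of transcription and immune responses, read 7.96 and 7.92, then 10.45 and 10.49, then 11 and 10.6 (2.69 ± 0.15, adjusted p = 0.00334). Nap1l5, of a histone chaperone family, read 4.94 and 5.01, then 7.40 and 7.48, then 7.35 and 6.83, with no further rise in experiment 3 (2.29 ± 0.18, adjusted p = 0.00913). The deubiquitinase Usp2 was higher by 2.48 ± 0.32, with a step of 3.15 in controls and 1.81 in irradiated cultures. Its brighter probe set was called at 1.475 ± 0.20. Gm13889 was higher by 2.42 ± 0.26, while a dim probe set of it, at -0.275, did not pass. The histone genes H2bc18 (2.47 ± 0.30) and H3f3b (2.26 ± 0.29) belong to families with near-identical members, so their identity is uncertain. Chka, choline kinase, was called on its dimmest probe set (2.25 ± 0.30), and its brighter probe sets differed by 1.98 (adjusted p = 0.123) and 1.60 (adjusted p = 0.0755). Ctsl, cathepsin L, was called on the dimmer of its probe sets, while the brighter stood at 0.12 and did not pass.

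**Figure D3:**
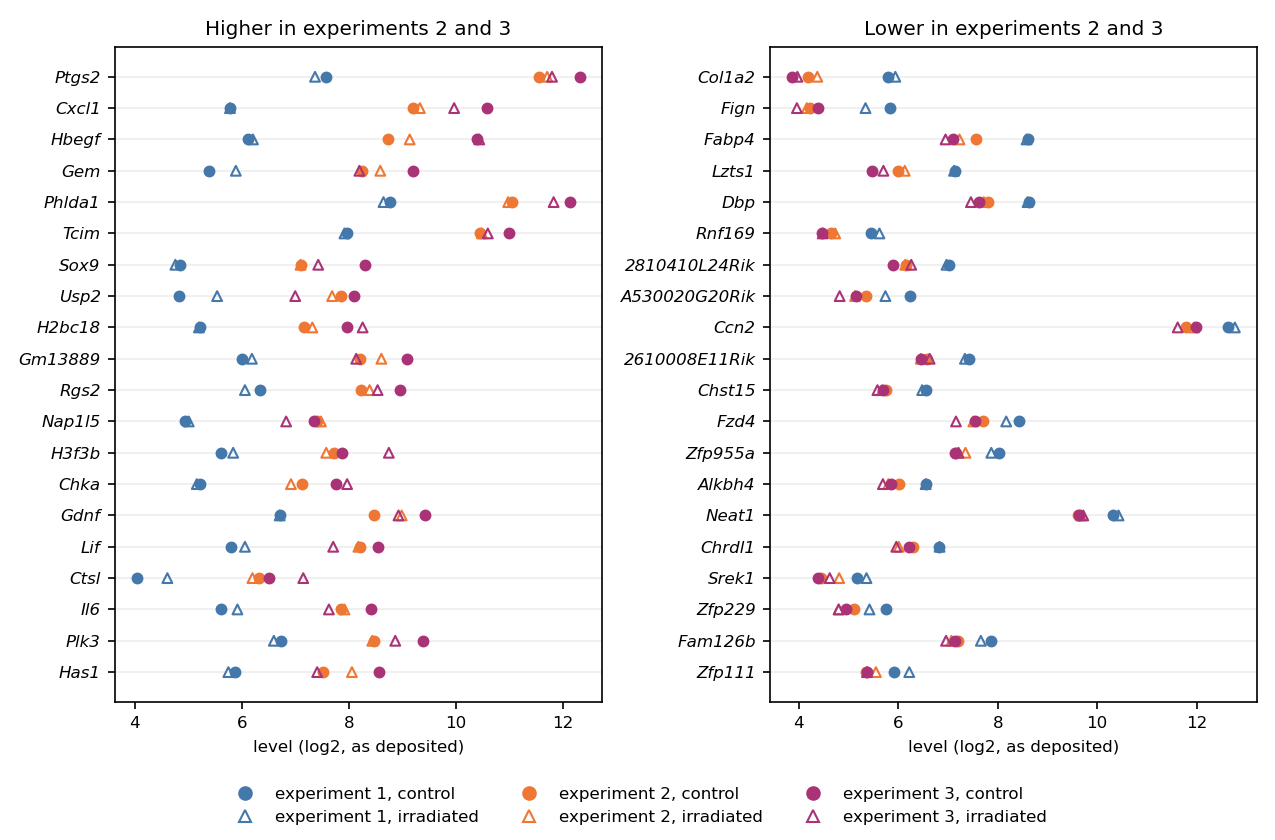
Level (log2, as deposited) on each of the 6 arrays for the 20 named genes with the largest higher and the 20 with the largest lower difference outside the early response and heat shock lists, 1 probe set per gene, with circles for controls, triangles for irradiated cultures and colours for experiments. Both arrays of experiment 1 stand on one side of all 4 later arrays in each row, because the rule for naming these genes asked for it, and the steps are larger on the higher side (Ptgs2 at 4.37) than on the lower (Col1a2 at -1.77).

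The DNA just before the start of these genes was searched for sites of the factors that the groups above answer to. RefSeq promoters of GRCm38.p6, from 250 bases before to 50 after each start, were matched for 81 of the 103 higher genes (113 promoters), 19 of the 28 lower genes (24 promoters) and 14368 of 18194 measured genes (18009 promoters). On either strand, the cAMP response element TGACGTCA lay in 9 promoters of the higher genes (7.96%), 2 of the lower (8.33%) and 2.5% of all. The AP-1 site TGACTCA lay in 6.19%, 0% and 4.52%, the NF-kB motif in 5.31%, 0% and 5.13%, and the E-box CACGTG in 10.6%, 4.17% and 8.74%. The antioxidant element TGACNNNGC, which can overlap an AP-1 site, lay in 20.4%, 8.33% and 13.8%. The SRF CArG box lay in 1 higher promoter (0.885% against 1.36% of all), the p53 motif in 1 (0.885% against 0.0444%), and the heat shock element GAANNTTCNNGAA in 0 (0% against 0.528%). The promoters of higher genes were also richer in G and C, with a median of 62% against 58.3%. These are letter matches with no test, and their part in the differences was not tested.

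Shown next are 6 promoters of higher genes that carry a match, 250 bases each, written 5′ to 3′ toward the start, with every match in capitals. In Has1 (chr17:17855189-17855438 on the reverse strand), Plk2 (chr13:110394794-110395043 on the forward strand) and Ppp1r15a (chr7:45526269-45526518 on the reverse strand) the capitals are the cAMP response element, which ends 76, 55 and 5 bases before the start. In Cxcl1 (chr5:90890995-90891244 on the forward strand) they are NF-kB matches on both strands. In Il6 (chr5:30012864-30013113 on the forward strand) they are an AP-1 match followed by an NF-kB match, and in Srxn1 (chr2:152105274-152105523 on the forward strand) a pair of AP-1 matches. The 250-base window of Ptgs2 that was searched held none of the motifs, which says only that these letters are not in it.
Has1: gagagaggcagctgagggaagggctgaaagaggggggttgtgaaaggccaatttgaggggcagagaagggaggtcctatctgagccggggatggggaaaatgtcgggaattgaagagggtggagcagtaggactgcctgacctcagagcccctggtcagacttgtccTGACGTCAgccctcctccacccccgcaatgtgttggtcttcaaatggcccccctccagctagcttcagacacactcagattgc
Plk2: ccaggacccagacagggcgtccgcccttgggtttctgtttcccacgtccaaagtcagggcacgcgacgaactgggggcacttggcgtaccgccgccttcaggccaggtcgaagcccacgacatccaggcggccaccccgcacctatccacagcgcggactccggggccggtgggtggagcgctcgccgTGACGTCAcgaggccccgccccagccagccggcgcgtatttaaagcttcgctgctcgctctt
Ppp1r15a: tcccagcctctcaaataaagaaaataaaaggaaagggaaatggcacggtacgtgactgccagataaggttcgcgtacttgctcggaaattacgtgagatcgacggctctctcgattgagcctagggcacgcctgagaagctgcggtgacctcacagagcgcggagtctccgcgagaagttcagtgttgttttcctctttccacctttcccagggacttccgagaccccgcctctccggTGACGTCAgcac
Cxcl1: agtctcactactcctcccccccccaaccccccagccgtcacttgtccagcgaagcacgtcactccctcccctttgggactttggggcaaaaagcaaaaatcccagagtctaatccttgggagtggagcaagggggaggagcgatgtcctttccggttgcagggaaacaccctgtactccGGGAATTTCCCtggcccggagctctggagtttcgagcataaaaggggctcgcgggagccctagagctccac
Il6: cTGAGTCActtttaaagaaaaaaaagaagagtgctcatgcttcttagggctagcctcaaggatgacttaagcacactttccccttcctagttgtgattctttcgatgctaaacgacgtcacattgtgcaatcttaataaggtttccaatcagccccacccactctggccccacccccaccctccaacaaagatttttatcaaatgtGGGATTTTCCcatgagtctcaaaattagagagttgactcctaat
Srxn1: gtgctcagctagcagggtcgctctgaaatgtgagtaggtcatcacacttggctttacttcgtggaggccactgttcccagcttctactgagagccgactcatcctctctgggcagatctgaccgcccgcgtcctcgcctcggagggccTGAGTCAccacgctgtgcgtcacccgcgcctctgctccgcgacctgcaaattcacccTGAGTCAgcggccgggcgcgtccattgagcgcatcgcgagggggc

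The lower side was smaller in number and in size, and its named genes fell into no large group. A pair of clock genes that oppose each other was called in opposite directions. Dbp, a transcription factor driven by the circadian clock, read 8.62 and 8.6 in experiment 1, 7.81 and 7.72 in experiment 2, and 7.62 and 7.46 in experiment 3. The arms of each experiment differed by at most 0.16, and both Dbp probe sets were called (-0.96 ± 0.11, limma adjusted p = 0.0207, and -0.83 ± 0.09, adjusted p = 0.0161). Nfil3, a repressor that binds the same DNA sites as Dbp, rose from 9.05 and 9.37 to between 10.14 and 10.53 (1.20 ± 0.15, adjusted p = 0.0277). These were the 2 called members of 20 clock genes, whose median was 0.03. Among all genes 0.517% were called higher and 0.066% lower. The core activator Arntl was at 0.59 (adjusted p = 0.112), Cry2 at 0.65 (adjusted p = 0.0945), Nr1d1 at -0.57 (adjusted p = 0.313), Per1 at 0.29 and Clock at -0.14, none past the test.

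Ccn2, a matrix-associated growth factor gene activated by YAP and TGF-beta, read 12.64 and 12.77 in experiment 1, 11.78 and 11.95 in experiment 2, and 11.98 and 11.62 in experiment 3 (-0.87 ± 0.13, limma adjusted p = 0.0479). It was the 1 called gene of 20 YAP and TEAD targets, whose median was -0.07, and Ccn1 (-0.30), Ankrd1 (0.00) and Amotl2 (-0.21) did not pass. Among all genes 0.066% were called lower. Fzd4, a Wnt receptor, went from 8.42 and 8.17 to between 7.16 and 7.71 (-0.81 ± 0.12, adjusted p = 0.0497), and was the 1 called gene of 31 Wnt and Notch genes. The other Fzd4 probe sets, at -0.51 and -0.15, did not pass. The bone morphogenetic protein antagonist Chrdl1 was lower by -0.70 ± 0.10, and Chst15, which sulfates chondroitin, by -0.84 ± 0.08 (adjusted p = 0.0128). Both were called on a dimmer probe set, and their brightest, at -0.985 and -0.80, did not pass. Lzts1 went from 7.15 and 7.12 to between 5.48 and 6.13 (-1.31 ± 0.18, adjusted p = 0.0391) and Fign, a microtubule-severing enzyme, from 5.83 and 5.34 to between 3.96 and 4.38 (-1.40 ± 0.11, adjusted p = 0.00836). The brightest Fign probe set, at -0.78, and another, at 0.03, did not pass.

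The lower calls included zinc finger genes of the Zfp series. Zfp955a (-0.73 ± 0.10), Zfp229 (-0.67 ± 0.09) and Zfp111 (-0.66 ± 0.10) were called by limma, and belong to a large family with similar sequences, so probe sets may share targets. Zfp518a and Zfp560 were called lower too, the latter on a dim probe set, while its brighter one stood at -0.17 and did not pass. In a separate list of 32 numbered Zfp genes 0 passed and 26 were negative, against 10010 of all 18193 genes. All 4 later arrays lay below experiment 1 in 18 of the list, against 18% of all genes. The median difference was -0.26, and it was -0.22 for experiment 2 and -0.23 for experiment 3 against experiment 1. The lowest p in the list was that of Zfp90, at 7.36 and 7.40, then 6.92 and 6.62, then 6.51 and 6.59 (-0.72 ± 0.13, adjusted p = 0.078, and 0.0331 with the replicate block).

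Cell division genes had the most negative median of all 52 lists, and no gene of that list was called. Among the G2/M and mitosis genes 27 of 29 measured members were negative, all 4 later arrays lay below experiment 1 in 20, and the median was -0.29. Over all 18193 genes 10010 were negative and 18% had all 4 later arrays below. The proliferation marker Mki67 was at -0.45, the mitotic kinase Aurkb at -0.41 and the phosphatase Cdc25b at -0.47 (limma adjusted p = 0.105). The median level of the list was 7.78 in control and 7.84 in irradiated culture of experiment 1, 7.60 and 7.66 in experiment 2, and 7.34 and 7.75 in experiment 3. Control culture 3 was therefore the lowest array, and irradiated culture 3 lay close to experiment 1. The median step was -0.38 in controls and -0.18 in irradiated cultures. Of 29 genes of G1/S and DNA replication 25 were negative with a median of -0.16, and 0 passed. Outside these lists, the kinetochore genes Cenpl and Zwint, named after their values were seen, were called higher. Cenpl differed by 0.99 ± 0.12 (adjusted p = 0.0251), and Zwint by 1.02 ± 0.09 on 1 probe set (adjusted p = 0.0104) and by 0.37 on its brightest, which did not pass.

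Genes of mitochondria and of leukocytes had small negative medians. Of 32 respiratory chain genes 31 were negative and 15 had all 4 later arrays below experiment 1, with a median of -0.12 and 0 past the test. The largest was Uqcrc2, a subunit of complex III, at -0.25 ± 0.08 (limma adjusted p = 0.258). Of 37 mitochondrial ribosomal proteins 29 were negative with a median of -0.10, while the median was -0.02 for 25 cytosolic ribosomal proteins and -0.03 for 32 proteasome subunits. Of 22 macrophage and leukocyte genes 18 were negative with a median of -0.13, 10 had all later arrays below, and 0 passed. Beside these lists, 10010 of all 18193 genes were negative and 18% had all 4 later arrays below.

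Some lists of the fat cell program also had small negative medians, and others did not. The median was -0.11 for fatty acid oxidation and -0.01 for fatty acid synthesis. It was 0.06 for brown and beige fat, where 10 of 17 members were positive. In the list of adipocyte identity genes 0 of 29 passed and 22 were negative, with a median of -0.09. All 4 later arrays lay above experiment 1 in 1 and below it in 3, against 11.2% and 18% of all genes. Of all 18193 genes 10010 were negative. Adipoq was at -0.11, Pparg at -0.10, Cebpa at -0.14 and Lpl at -0.13. Cidec, which enlarges lipid droplets, was at 0.34 (limma adjusted p = 0.191). In lipolysis and triglyceride assembly 0 of 23 passed and 16 were negative, with a median of -0.10. The widest difference there was in G0s2, an inhibitor of the main fat cell lipase, at 9.23 and 8.34, then 7.93 and 7.48, then 6.85 and 7.47 (-1.35 ± 0.32, adjusted p = 0.158). Acaca, the first enzyme of fatty acid synthesis and the gene with the lowest p of that list, was at -0.54 ± 0.09 (adjusted p = 0.0694, and 0.0415 with the replicate block). The medians of the adipocyte identity list and of the lipolysis and triglyceride assembly list kept their sign under quantile normalization and median centring.

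**Figure D4:**
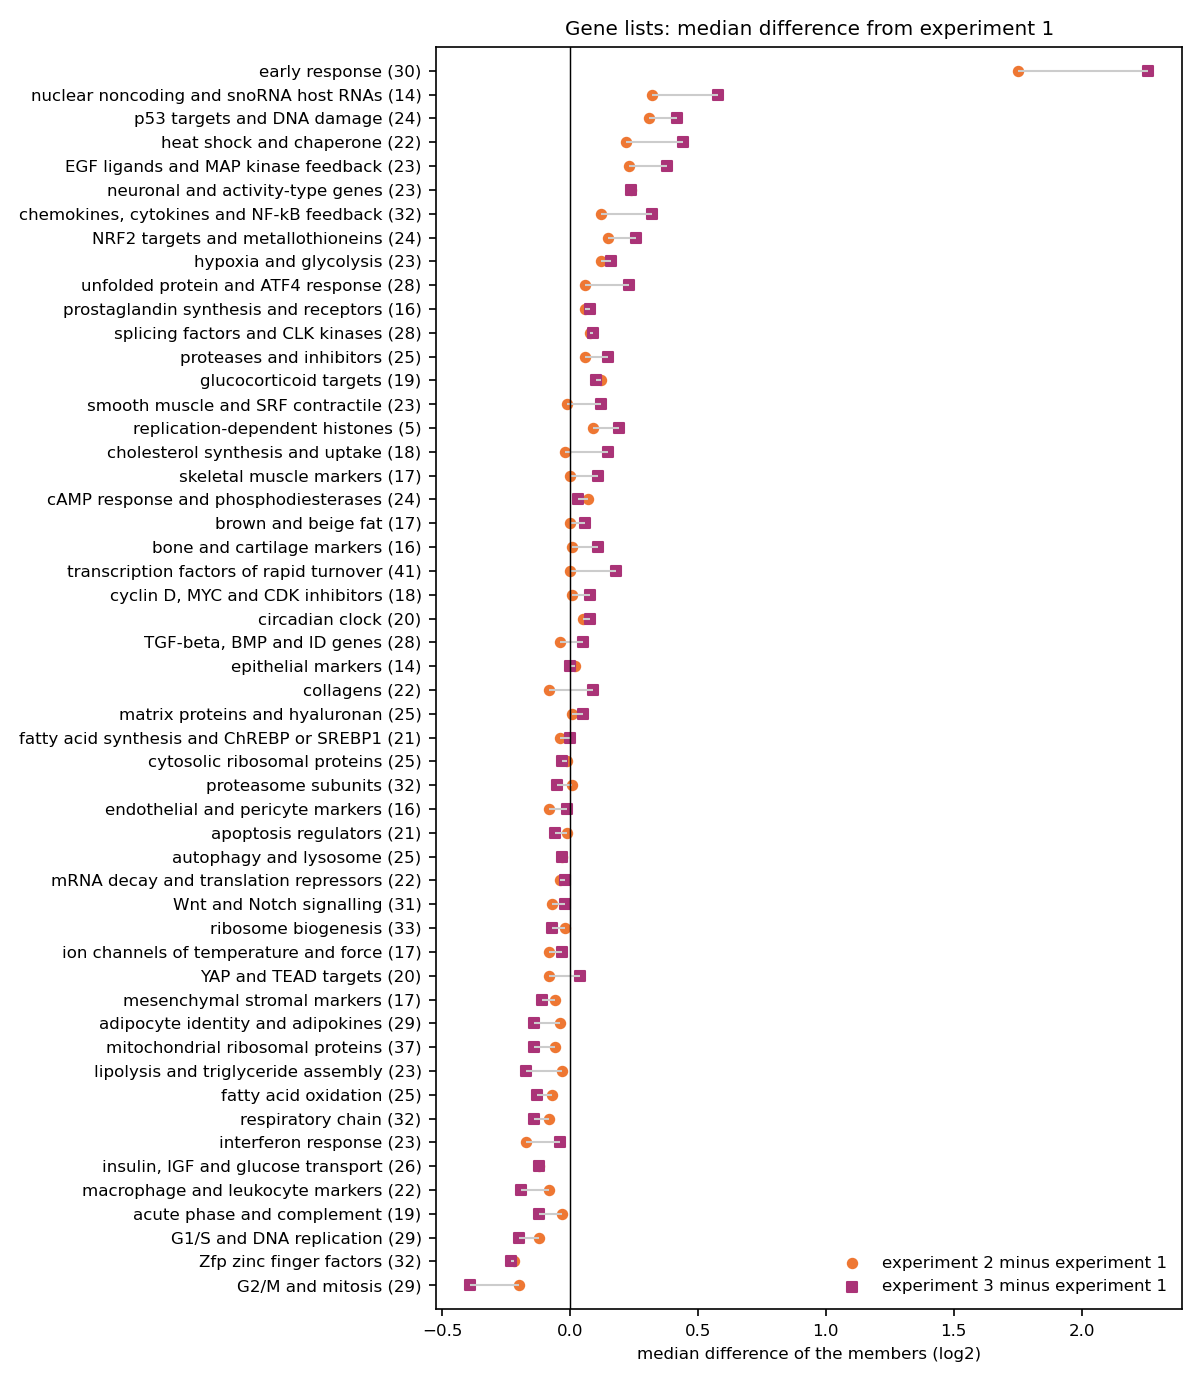
Median difference from experiment 1 (log2) over the measured members of each of the 52 lists, for experiment 2 (circles) and experiment 3 (squares), with the number of measured members in brackets and 1 probe set per gene. Both comparisons share the arrays of experiment 1. The early response list lies at 1.75 and 2.26, far from the others, and the G2/M and mitosis list lowest at -0.20 and -0.39.

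RNAs that stay in the nucleus or host small nucleolar RNAs had the highest median outside the early response list, at 0.46, with 12 of 14 members positive and 0 called higher on their brightest probe sets. All 4 later arrays lay above experiment 1 in 11, against 11.2% of all genes, and 8183 of all 18193 genes were positive. The 1 lower call was Neat1, the RNA that builds paraspeckles, which stood at 10.31 and 10.43, then between 9.61 and 9.72 (-0.71 ± 0.08, limma adjusted p = 0.0191). A dimmer Neat1 probe set went the other way, at 0.82 ± 0.14 (adjusted p = 0.0666), and the mean of both was 0.056. Malat1, a nuclear RNA of speckles, was called with 1 of its 7 probe sets (0.75 ± 0.08, adjusted p = 0.0191), and the other 6 lay between -0.05 and 1.47. Snhg1, a host of small nucleolar RNAs, was called with 2 of its 5 probe sets (0.82 ± 0.08 and 0.84 ± 0.09), and the brightest was at 0.55 (adjusted p = 0.158).

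Probe sets of the same gene often disagreed. Of 119 higher calls in genes with several probe sets, 68 were not the brightest of their gene, and the brightest was also called for 36 of these and lay within 0.3 of no difference for 10. Of 25 lower calls 18 were not the brightest, and the brightest was also called for 1 and within 0.3 for 9. Col1a2, a subunit of type I collagen, was the top lower probe set at 5.79 and 5.94, then 4.18 and 4.37, then 3.87 and 3.97 (-1.77 ± 0.14, limma adjusted p = 0.00917), while its brightest probe set was at 0.02. Fabp4, the fatty acid carrier of fat cells, had a called probe set at 8.60 and 8.58, then 7.57 and 7.23, then 7.10 and 6.95 (-1.38 ± 0.15, adjusted p = 0.0195), another at -1.45 (adjusted p = 0.167), and its brightest at -0.04. On the higher side a dim Ctsl probe set rose by 2.22 ± 0.24 (adjusted p = 0.0185) beside 0.12 for the brightest, and one of the RNA host gene Gas5 by 1.68 ± 0.18 (adjusted p = 0.0155) beside 0.29. Which transcript forms these probe sets read was not analysed here, so no statement about the gene as a whole is made from them.

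**Figure D5:**
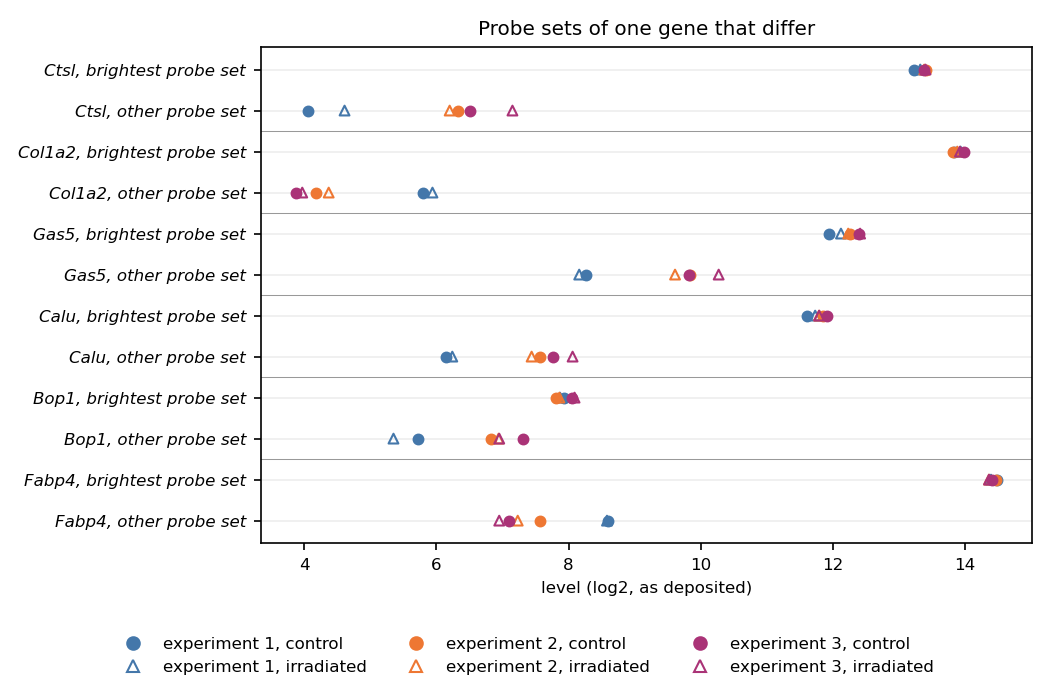
Level (log2, as deposited) on each array for 6 genes whose called probe set and brightest probe set differ, with circles for controls, triangles for irradiated cultures and colours for experiments. In each gene the 6 points of the brightest probe set lie closer together, while those of the other one separate experiment 1 from experiments 2 and 3 (Ctsl 2.22, Col1a2 -1.77, Gas5 1.68, Calu 1.52, Bop1 1.47, Fabp4 -1.38).

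Experiment 3 mostly went further than experiment 2. Against experiment 1, the higher calls had a median difference of 1.28 in experiment 2 and 1.47 in experiment 3, and the lower calls of -0.75 and -0.84. The mean of experiment 3 lay beyond that of experiment 2 in 150 of 188 higher and 35 of 41 lower calls. Both arrays of experiment 3 lay beyond both of experiment 2 in 88 and 12, and the reverse order was seen in 9 and 0. The same counts were not made over all probe sets, so whether this order is particular to the calls is not shown. Over all probe sets experiment 3 also lay farther from experiment 1, by root mean square 0.311 to 0.368 against 0.241 to 0.263 for experiment 2. Few steps between experiments 3 and 2 passed a test of their own: a limma fit with all 3 experiments called 16 probe sets (0.0355%). In experiment 3 the control was above the irradiated culture in 143 of the 188 higher calls, with a median irradiated minus control difference of -0.24. In experiments 1 and 2 it was above in 93 and 92, with medians of 0 and 0.005, and over all probe sets of experiment 3 in 48.4%. Control culture 3 also carried the highest mean of the hybridization controls, 11.63 against 11.06 to 11.25 on the other arrays, and its part in this was not tested.

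Of the called genes, 58 of the 122 higher and 22 of the 28 lower belonged to no list. Some lists had only 1 or 2 calls. The mRNA decay list had 2 of 22 members higher, Pnrc1 (0.89 ± 0.13, limma adjusted p = 0.0493) and Cpeb2 (0.59 ± 0.08, adjusted p = 0.0425). The insulin and glucose transport list had Trib1, a pseudokinase (1.59 ± 0.23, adjusted p = 0.045), out of 26, and the TGF-beta, BMP and ID list had Tgif1, a repressor of TGF-beta signalling (0.72 ± 0.09, adjusted p = 0.0332), out of 28. Among 23 genes of neurons and neuronal activity Gem was the only call, although Nefm, a neurofilament, was at 3.35 (adjusted p = 0.0993). All 4 later arrays lay above in 11 of these, against 11.2% of all genes. Of all 18193 genes 0.517% were called higher. Further genes did not pass here but fell under the threshold with the replicate block, which leaves the spread between experiments 2 and 3 out of the error. On the higher side they were Mxd1, a MYC antagonist (0.98, adjusted p = 0.153 and 0.00811 with the block), Nop56 of ribosome assembly (0.72, 0.139 and 0.0128), the hyaluronan-binding Tnfaip6 (1.49, 0.0693 and 0.0142), the histone gene H3c4 (1.09, 0.104 and 0.00403) and the splicing kinase Clk1 (0.66, 0.0654 and 0.0433). On the lower side there was Mylk of the smooth muscle and SRF contractile list (-0.525, limma adjusted p = 0.0857 and 0.0435 with the block). In the lists of splicing factors, ribosome biogenesis, interferon response, autophagy and lysosome, and apoptosis regulators 0 genes passed, with medians of 0.09, -0.06, -0.12, -0.04 and -0.03.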

How the data were processed

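RNA of each culture was measured on an Affymetrix array, from 200 ng of total RNA. The deposited log2 values hold a level for each probe set; the tools that the submitters' processing notes list for the authors are RMA, affy and limma, without versions. No file states the base of the logarithm, and the log2 scale was assumed since RMA returns it. RMA gives all arrays the same distribution, so shifts common to every transcript are invisible. The scanner files were not used here.

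Probe sets were named from the platform annotation: 34945 have 1 gene symbol, 932 several and 9160 are unnamed here. Symbols were checked by Entrez identifier against a RefSeq table of GRCm38.p6, which replaced 0 and lacks 204 of these probe sets. The difference was fitted with limma 3.58.1 in R 4.3.3 (lmFit and eBayes, terms for later against first experiments and for irradiation, two-sided, Benjamini-Hochberg over 45037 probe sets, threshold 0.05, no filter). The number of arrays limits the precision, and the median SE was 0.103. The test was checked on simulated data with independent noise on each array. That check held no effect shared by an experiment, so it does not cover the spread between experiments.

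The pairing of the arms comes from the series design. After subtracting the mean of each arm, paired arrays correlated across probe sets with r = 0.63, 0.14 and 0.50. Pairs across experiments ran from -0.54 to 0.15, the highest being irradiated culture 2 with control culture 3. All these values contain the step between the first and the later experiments. With that step fitted, limma's consensus correlation within experiments was -0.022. Counts with the experiment as a replicate block stand beside the main ones. Alternatives were that block, a random block, no irradiation term, quantile normalization, median centring, a filter on level, an intensity trend, a robust prior, the mean of probe sets, each arm alone and leaving out arrays.

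Named genes are the 20 single-gene probe sets per direction with the largest difference among calls with no overlap, a mean at or above the median probe set in the higher group and no membership in the early response or heat shock list. Up to 3 called members per other list, or the one with the lowest p, were added, with Fos and Hspa1a. Other list members were named after their values were seen. Of 1290 genes in 52 lists 1183 were found, and a list gene was read on its brightest probe set. The comparison, the members and the lists were chosen with earlier results of these data known.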

Additional observations from a re-analysis of the deposited data

Results flagged for a closer look

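Among the named probe sets, 3 of 95 had 1 of the 4 later arrays far from the other 3, with a gap to the nearest that exceeds Dixon's 95% critical value for 4 samples. Chance flags about 1 in 20 such groups. Lepr, the leptin receptor, stood at 10.18 in control culture 2 and between 9.91 and 9.93 on the other later arrays. Cdc25b, a cell cycle phosphatase, stood at 6.45 in control culture 3 and between 6.66 and 6.69 on the others. Dusp14, a MAP kinase phosphatase, stood at 7.88 in irradiated culture 3 and between 8.39 and 8.48 on the others.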

How the results depend on the processing

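All alternatives were planned. With the replicate block the counts were 640 higher and 306 lower, without the irradiation term 354 and 131, and with an intensity trend 395 and 126. A filter on level gave 72 lower. Leaving out arrays or experiments gave 0 to 262 higher and 0 to 90 lower calls, and dropping experiment 1 left no contrast. Each arm alone gave 0 and 0 by limma (890 higher and 670 lower unadjusted in controls, 1797 and 2016 in irradiated cultures), with 1 array on one side. Both counts stayed within 1.5 times under a random replicate block, quantile normalization, median centring and a robust prior, and the interaction count was 0 in every setting run. Neat1 reversed to 0.056 with the mean of probe sets. Of 95 named probe sets, 86 kept their side of the threshold with the replicate block, and the other 9 passed only with it. The causes were not tested. The calls rest on 1 experiment on one side, and without either of its arrays none remained.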
